A study of Homo sapiens with 17 samples.

Results

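The genes described here encode feedback brakes on the mitogen-activated protein kinase (MAPK) cascades: 5 dual-specificity phosphatases (DUSP1, DUSP4, DUSP5, DUSP6 and DUSP10), 3 Sprouty proteins (SPRY1, SPRY2 and SPRY4) and the Sprouty-related SPRED1 and SPRED2. They were chosen by symbol from the 26457 genes of the expression table, before any filter on level. All 10 were listed, and all 10 were among the 14800 genes that entered the tests, those averaging 2.5 normalized reads or more over the 8 libraries.

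Growth factor receptors and oncogenic RAS activate the kinases RAF, MEK and ERK in turn, and stress and inflammatory cytokines activate the related kinases JNK and p38. The dual-specificity MAPK phosphatases remove phosphate from the threonine and the tyrosine that switch a MAPK on. DUSP1, DUSP4 and DUSP5 are nuclear enzymes, DUSP6 is the cytoplasmic phosphatase of ERK, and DUSP10 acts mainly on JNK and p38. Sprouty and SPRED proteins act further upstream, where they limit the activation of RAS and RAF; SPRED proteins bind the RAS-inactivating protein neurofibromin. Transcription of many of these genes rises with ERK activity, so that their mRNAs are widely used as a readout of the pathway.

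The libraries came from SW480, an established human colon cancer cell line that carries mutant p53 (mutp53). Cells that stably carried a doxycycline-inducible short hairpin RNA (shRNA) against LacZ, called control here, were compared with cells carrying an inducible shRNA against p53, called mutp53-depleted (the control line and the depleted line below), and both lines were grown with puromycin and induced with doxycycline. Each line was harvested without treatment (0 h) or after TNF-α at 12.5 ng/ml for 16 h, an inflammatory cytokine that activates NF-κB, JNK and p38, and strand-specific poly(A) mRNA-seq was done on libraries A and B, which are biological replicates, for every group. Each hairpin was carried by its own line, so that depletion and other differences between the lines cannot be told apart.

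Between 6108488 and 13809578 reads fell on genes in each library, and replicate A was the deeper library in all 4 groups. All 7 epithelial markers examined (EPCAM, KRT8, KRT18, KRT19, CDH1, CDX2 and VIL1) were among the tested genes. Their summed level lay between 66176 and 70708 normalized reads in the control line at 0 h, 56292 and 56382 at 16 h, 52452 and 52479 in the depleted line at 0 h and 42726 and 43889 at 16 h. With depletion at 0 h, 5 of the 7 were lower at the adjusted p, KRT19 was higher (1.20-fold) and CDX2 did not pass (1.09-fold). Of all genes tested, 25.2% were lower and 27.3% higher in this comparison. VIL1, which encodes the microvillus protein villin, had the largest change of the 7, from 513 ± 45.8 to 10.5 ± 2.57 normalized reads (SD, n = 2). Of 9 leukocyte, endothelial and fibroblast markers, 4 passed the filter, PTPRC and DCN had no read in any library, and the summed level of the 9 lay between 35.8 and 45.0 in control libraries and between 76.3 and 130 in mutp53-depleted libraries, most of it from COL1A1. Both sums moved with the groups compared, and their part in the results below was not tested.

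Promoter sequence was available from RefSeq (GRCh38.p14) for 8 of the 10 genes, in 13 windows, and not for DUSP4 and DUSP5. The 250 bases before the transcription start are shown for DUSP6 and DUSP10, the 2 of these 8 genes with a change of at least 2-fold in the data below. They are also shown for DUSP1 and SPRY2, which had a window with more than 1 match to the motifs searched. For DUSP10 and SPRY2 only the first window is shown, and their further windows held no match. The motifs, searched on both strands, were the cAMP response element TGACGTCA and its core TGACG, which overlaps it, the AP-1 element TGANTCA, the ETS element CCGGAA and the NF-κB element. Capitals mark the matches, and each sequence is written 5′ to 3′ on the strand of its gene.
DUSP6 promoter, chr12:89352502-89352751, minus strand: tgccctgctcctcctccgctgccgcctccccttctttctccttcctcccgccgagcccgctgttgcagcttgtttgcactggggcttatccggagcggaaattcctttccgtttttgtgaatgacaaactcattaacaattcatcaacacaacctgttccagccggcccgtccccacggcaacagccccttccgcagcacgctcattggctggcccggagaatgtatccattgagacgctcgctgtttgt
DUSP10 promoter, chr1:221742090-221742339, minus strand: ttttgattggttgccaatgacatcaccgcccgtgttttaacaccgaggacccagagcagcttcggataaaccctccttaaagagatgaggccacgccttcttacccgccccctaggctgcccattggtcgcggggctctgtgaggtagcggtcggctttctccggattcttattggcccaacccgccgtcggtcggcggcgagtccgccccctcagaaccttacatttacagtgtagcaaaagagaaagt
DUSP1 promoter, chr5:172771196-172771445, minus strand: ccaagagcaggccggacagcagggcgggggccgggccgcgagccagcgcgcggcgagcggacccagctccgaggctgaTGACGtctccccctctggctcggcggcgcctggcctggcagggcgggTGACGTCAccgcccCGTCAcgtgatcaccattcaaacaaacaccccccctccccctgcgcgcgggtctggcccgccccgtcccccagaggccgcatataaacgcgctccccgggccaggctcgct
SPRY2 promoter, chr13:80341127-80341376, minus strand: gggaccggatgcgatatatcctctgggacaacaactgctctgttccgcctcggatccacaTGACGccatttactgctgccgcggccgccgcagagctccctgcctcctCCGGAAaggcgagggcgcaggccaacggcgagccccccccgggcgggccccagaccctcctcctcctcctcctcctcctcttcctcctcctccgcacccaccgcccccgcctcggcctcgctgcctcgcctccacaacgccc
The DUSP1 window held a full cAMP response element 125 bases before the start and 4 matches to its core, at 172, 125, 122 and 111 bases. The SPRY2 window shown held a core match at 190 bases and an ETS match at 142 bases. Elsewhere, SPRY4 had a core match at 68 bases and the second SPRY1 window an ETS match at 67 bases. No AP-1 or NF-κB match was present in any of the 13 windows, which says only that these letters are absent from 250 bases. Over windows of the same length at 35116 promoters, the full element was present in 1.65%, its core in 21.2%, the AP-1 element in 6.57%, the ETS element in 14.5% and the NF-κB element in 9.96%.

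Across the 4 groups, DUSP6 was by far the most abundant of these mRNAs, TNF-α raised DUSP5 at least 2-fold in both lines and DUSP10 in the depleted line, and with mutp53 depletion DUSP6 was higher at both times and DUSP10 at 16 h. Levels are given as normalized reads, the exonic reads of a gene after each library was brought to a common total. Changes are limma log2 fold changes of log2(normalized reads + 1) with their standard error (SE), and a gene was called when its p, adjusted over all genes by Benjamini-Hochberg, was under 0.05 together with a change of at least 2-fold. In each of the 4 comparisons, between 8802 and 11451 of the 14800 tested genes had groups whose libraries did not overlap. Not overlapping is therefore given below as a description and not as evidence. In bulk RNA, a change in the share of cells that express a gene and a change in its RNA per cell cannot be told apart.

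**Figure D1:**
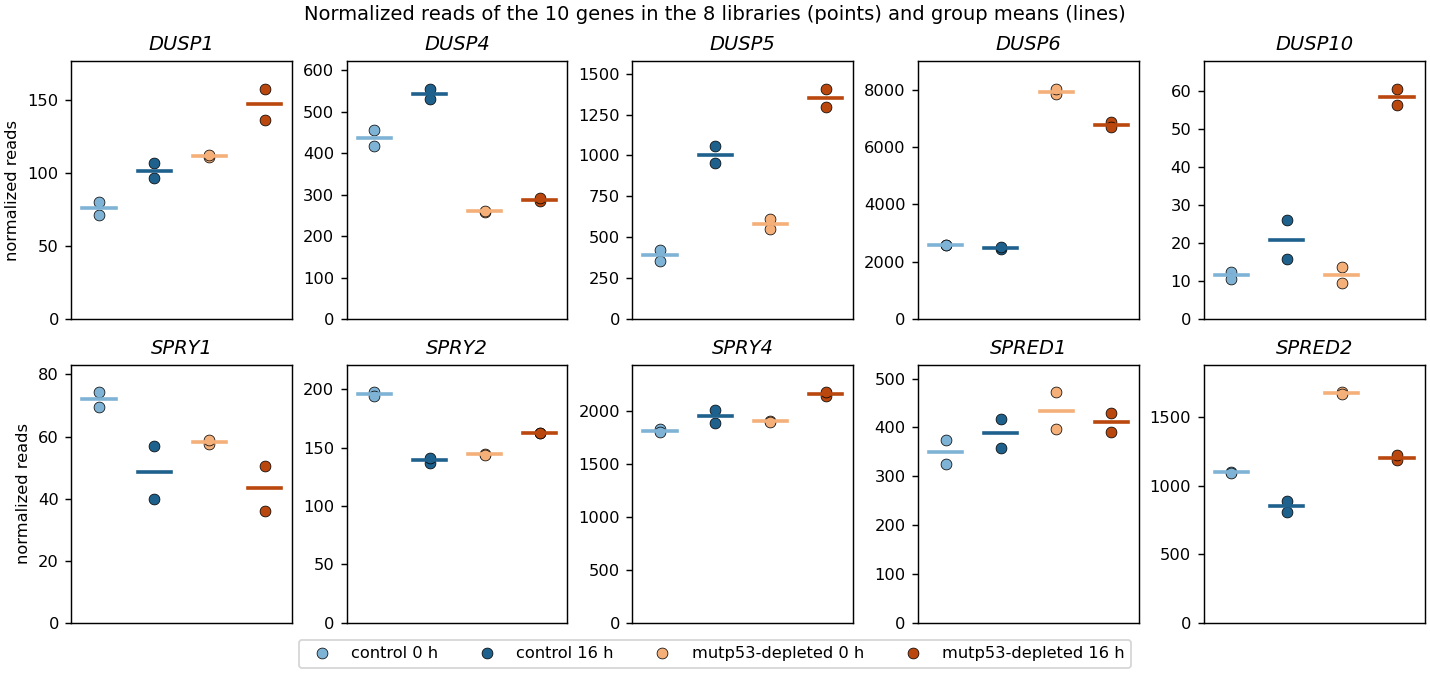
Normalized reads (vertical axes, linear, from 0, each gene on its own scale) of the 10 genes. Points are single libraries, lines are means of the 2 libraries of a group, and colours are the 4 groups. DUSP6 lies between 2439 and 2583 in the control libraries and between 6688 and 8034 in the mutp53-depleted libraries, whereas DUSP5 and DUSP10 reach their highest values in the depleted line at 16 h.

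DUSP6 (NM_001946, hg19 chr12:89741602-89746636, minus strand), the cytoplasmic ERK phosphatase, was the only member called between the lines at both times. Control libraries had 2583 and 2572 normalized reads at 0 h and 2439 and 2502 at 16 h, against 7832 and 8034 at 0 h and 6873 and 6688 at 16 h in mutp53-depleted libraries. Every mutp53-depleted library was above every control library, at both times. The ratio of means was 3.08 at 0 h (log2 fold change 1.62, SE 0.06, adjusted p = 1.5e-12) and 2.74 at 16 h (1.46, SE 0.06, adjusted p = 5.0e-12). TNF-α itself left DUSP6 at 0.959 times its 0 h level in the control line (adjusted p = 0.54) and at 0.855 times in the depleted line (log2 fold change -0.23, SE 0.06, adjusted p = 0.013). The second of these passed the test but not under 7 of the 17 alternatives (adjusted p from 0.0069 to 0.125 over all 17), which were median-ratio rescaling, edgeR, DESeq2 and each of the 4 libraries of the depleted line left out. The difference between the 2 responses did not pass (log2 -0.17, SE 0.09, adjusted p = 0.47).

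Genes around DUSP6 on chromosome 12 were also higher in the depleted line. The median log2 fold change of the 50 tested genes nearest to DUSP6, all within 9.50 Mb of it, was 0.52 at 0 h and 0.51 at 16 h, with 39 and 40 of the 50 above 0. DUSP6 stood above this level, since 1 of the 50 had a larger change at each time. With the median of these neighbours taken off each library, the change of DUSP6 was 1.11 at 0 h (adjusted p = 1.0e-09) and 0.87 at 16 h (adjusted p = 2.8e-08), so that it kept its direction and passed the test but was no longer 2-fold at 16 h. On the other arm of the chromosome DUSP16, which encodes a JNK phosphatase, had a log2 fold change of 1.38 at 0 h among neighbours at a median of 1.07. With neighbours taken off, DUSP16 was at 0.37 at 0 h (adjusted p = 0.0067) and 0.03 at 16 h (adjusted p = 0.85). How much of these values belongs to depletion and how much to other differences between the lines cannot be told apart.

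**Figure D2:**
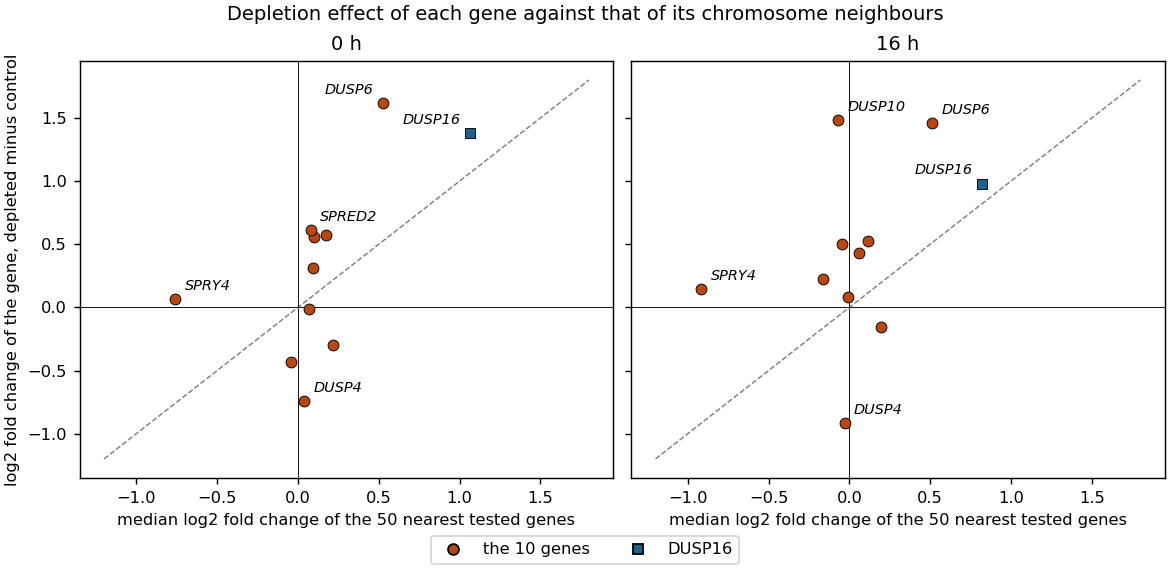
Log2 fold change of each gene between the depleted and the control line (vertical axis) against the median of its 50 nearest tested genes on the same chromosome (horizontal axis), at 0 h (left) and 16 h (right). Circles are the 10 genes, squares are DUSP16, also on chromosome 12, and the dashed line marks equal change. DUSP6 lies above the line with neighbours at 0.52 and 0.51, and SPRY4 lies near 0 with neighbours at -0.76 and -0.92.

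The nuclear phosphatases differed in both directions. DUSP5 (NM_004419, hg19 chr10:112257625-112271302, plus strand), a nuclear ERK phosphatase, was the strongest TNF-α-induced member in the control line. It rose from 423 and 356 normalized reads to 1058 and 953 in the control line, and from 548 and 612 to 1299 and 1408 in the depleted line. All treated libraries were above all untreated libraries, and within each time both mutp53-depleted libraries were above both control libraries. TNF-α raised DUSP5 2.58-fold in the control line (log2 fold change 1.37, SE 0.10, adjusted p = 3.2e-09) and 2.33-fold in the depleted line (1.22, SE 0.10, adjusted p = 2.0e-08). It was at 1.49 times control with depletion at 0 h (0.58, SE 0.10, adjusted p = 5.5e-05) and at 1.35 times at 16 h (0.43, SE 0.10, adjusted p = 0.00096). The response to TNF-α was not shown to differ between the lines (log2 -0.15, SE 0.13, adjusted p = 0.71). A pseudogene, DUSP5P1, is listed separately with at most 18.5 normalized reads in a library, and reads shared between the 2 could have been counted to either.

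DUSP4 (NM_001394, hg19 chr8:29190579-29208267, minus strand), which acts on ERK and JNK, was the only member that passed the test as lower with depletion at both times. Control libraries had 456 and 417 normalized reads at 0 h and 556 and 531 at 16 h, and mutp53-depleted libraries had 259 and 262 and then 285 and 291. No control library fell as low as a mutp53-depleted library. The level with depletion was 0.596 times that of control at 0 h (log2 fold change -0.74, SE 0.10, adjusted p = 3.5e-06) and 0.530 times at 16 h (-0.91, SE 0.10, adjusted p = 2.8e-07), which passed the test without reaching 2-fold. TNF-α raised DUSP4 1.24-fold in the control line (0.32, SE 0.10, adjusted p = 0.020, with a range of 0.0062 to 0.16 over the 17 alternatives, lost without control replicate B at 0 h, 0.16, or A at 16 h, 0.093), and the value was 1.11-fold in the depleted line (adjusted p = 0.29). The median of its neighbours on chromosome 8 was 0.04 at 0 h and -0.03 at 16 h.

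DUSP1 (NM_004417, hg19 chr5:172195093-172198203, minus strand), an immediate-early phosphatase of p38, JNK and ERK, was expressed at a low level. Control libraries had 80.6 and 71.2 normalized reads at 0 h and 96.7 and 107 at 16 h, and mutp53-depleted libraries had 111 and 112, then 137 and 158. The 4 groups did not overlap and their means rose in that order, from 75.9 ± 6.62 to 147 ± 15.1 (SD, n = 2). DUSP1 was at 1.47 times control with depletion at 0 h (log2 fold change 0.56, SE 0.17, adjusted p = 0.0088) and at 1.45 times at 16 h (0.53, SE 0.17, adjusted p = 0.012). The values for TNF-α were 1.34-fold in the control line (adjusted p = 0.072) and 1.32-fold in the depleted line (adjusted p = 0.092). Neither passed the test with the main settings, though each did under some of the alternatives. Over the alternatives, the adjusted p of the difference between the lines lay between 0.0073 and 0.068 at 0 h and between 0.0079 and 0.12 at 16 h. It was lost at 0 h without replicate B of the control line (0.065) or of the depleted line (0.053), at 16 h without replicate A of the control line (0.074) or B of the depleted line (0.12), and at both times with DESeq2 (0.068 and 0.053).

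DUSP10 (NM_007207, hg19 chr1:221874762-221915518, minus strand), the JNK and p38 phosphatase, was nearly silent except in the depleted line after TNF-α. It had 12.3 and 10.6 normalized reads in the control line at 0 h, 26.1 and 15.65 in the control line at 16 h and 9.38 and 13.7 in the depleted line at 0 h, against 56.2 and 60.5 in the depleted line at 16 h. Both libraries of the last group were above all others, while the 0 h libraries of the 2 lines overlapped. These values rest on 7 to 27 reads in the other libraries and on 67 and 49 reads in the last group, so that counting error is large. TNF-α raised DUSP10 5.05-fold in the depleted line (log2 fold change 2.26, SE 0.36, adjusted p = 9.9e-05), and its value in the control line was 1.82-fold (0.77, SE 0.36, adjusted p = 0.12). With depletion it was 2.79-fold higher at 16 h (1.48, SE 0.36, adjusted p = 0.0019) and 1.01 times control at 0 h (adjusted p = 0.99). The difference between the responses of the 2 lines was large and poorly determined, at log2 1.49 with an SE of 0.50 (limma adjusted p = 0.14), and it did not pass under any of the 17 alternatives (adjusted p from 0.072 to 0.51).

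Among the Sprouty genes, only SPRY2 (NM_005842, hg19 chr13:80910112-80915086, minus strand) had TNF-α values of opposite sign in the 2 lines. Of these, the fall in the control line alone passed the test. SPRY2 had 197 and 194 normalized reads in the control line at 0 h and 137 and 141 at 16 h, and 145 and 144 at 0 h and then 163 and 163 in the depleted line. The control libraries at 0 h were highest, and the 4 groups did not overlap. In the control line SPRY2 fell with TNF-α to 0.711 times its 0 h level (log2 fold change -0.49, SE 0.13, adjusted p = 0.0092), and in the depleted line it was at 1.13 times (0.17, SE 0.13, adjusted p = 0.37). The TNF-α change in the control line did not pass with DESeq2 (adjusted p = 0.092; 0.0080 to 0.092 over the 17 alternatives). SPRY2 was lower with depletion at 0 h, at 0.738 times control (-0.44, SE 0.13, adjusted p = 0.0093), and at 16 h it was at 1.17 times (adjusted p = 0.16). The difference between the responses was log2 0.66 with an SE of 0.19, and its limma adjusted p was 0.067. It passed with edgeR on the recovered reads (0.69, adjusted p = 0.042) and with the neighbours' median taken off (0.77, adjusted p = 0.039), and over the 17 alternatives the adjusted p lay between 0.039 and 0.265.

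SPRY4 (NM_030964, hg19 chr5:141689992-141704620, minus strand) was abundant and nearly level. It had 1832 and 1799.8 normalized reads in the control line at 0 h, 2014 and 1885 at 16 h, and 1906 and 1899 and then 2140.4 and 2177 in the depleted line. All 8 libraries lay between 1799.8 and 2177, and none of the 4 comparisons passed the test with the main settings (adjusted p from 0.052 to 0.42). The change with depletion was 0.07 at 0 h and 0.15 at 16 h (SE 0.07), beside a median of -0.76 and -0.92 for its 50 nearest tested genes. Of these 50, 25 were protocadherin genes, with a median of -1.07 and -1.35, and the median of the other 25 was -0.01 and -0.05. Some protocadherin genes share exons and may therefore share reads, which was not tested. Taking off the median of all 50 would make SPRY4 called at 16 h (1.18, adjusted p = 6.4e-10), a value that depends on the protocadherin genes. SPRY4-IT1, a noncoding RNA within the span and on the strand of SPRY4, is listed separately with 12.3 to 31.8 normalized reads, and reads from the 2 cannot be fully separated.

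SPRY1 (NM_001258038, hg19 chr4:124317950-124324915, plus strand) was low, with 69.7 and 74.2 normalized reads in the control line at 0 h, 57.0 and 39.8 at 16 h, 57.6 and 59.0 in the depleted line at 0 h and 36.05 and 50.6 at 16 h. The treated groups had the lower means in both lines, but the SD of replicates was 12.2 normalized reads in the control line and 10.3 in the depleted line at 16 h. Its log2 fold change with TNF-α was -0.58 (SE 0.24, adjusted p = 0.089) in the control line and -0.44 (adjusted p = 0.20) in the depleted line, and with depletion it was -0.30 (adjusted p = 0.32) and -0.15 (adjusted p = 0.62). No comparison of SPRY1 passed the test with the main settings, though the TNF-α change in the control line did under some of the alternatives.

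SPRED2 (NM_181784, hg19 chr2:65537985-65659656, minus strand) was higher with depletion and lower after TNF-α. It had 1099 and 1094 normalized reads in the control line at 0 h and 807 and 891 at 16 h, and 1680.0 and 1671 and then 1185 and 1223 in the depleted line. None of the 4 groups overlapped another. SPRED2 was at 1.53 times control with depletion at 0 h (log2 fold change 0.61, SE 0.07, adjusted p = 1.3e-06) and at 1.42 times at 16 h (0.51, SE 0.07, adjusted p = 1.3e-05). TNF-α lowered it to 0.774 times in the control line (-0.37, SE 0.07, adjusted p = 0.00083) and to 0.719 times in the depleted line (-0.48, SE 0.07, adjusted p = 7.6e-05). These 4 changes passed the test and stayed under 2-fold.

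SPRED1 (NM_152594, hg19 chr15:38545052-38649450, plus strand) varied little beyond its replicates. Control libraries had 374 and 324 normalized reads at 0 h and 359 and 417 at 16 h, and mutp53-depleted libraries had 396 and 472 and then 430.1 and 390.0. The groups overlapped in the other comparisons but not between the lines at 0 h. There the change was 1.24-fold (log2 fold change 0.31, SE 0.11, adjusted p = 0.029), and the adjusted p lay between 0.016 and 0.31 over the alternatives. It was lost without replicate B at 0 h of the control line (0.24) or the depleted line (0.31), with edgeR (0.061), with DESeq2 (0.124) and with neighbours taken off (0.080). At 16 h the value was 1.06-fold (adjusted p = 0.57).

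**Figure D3:**
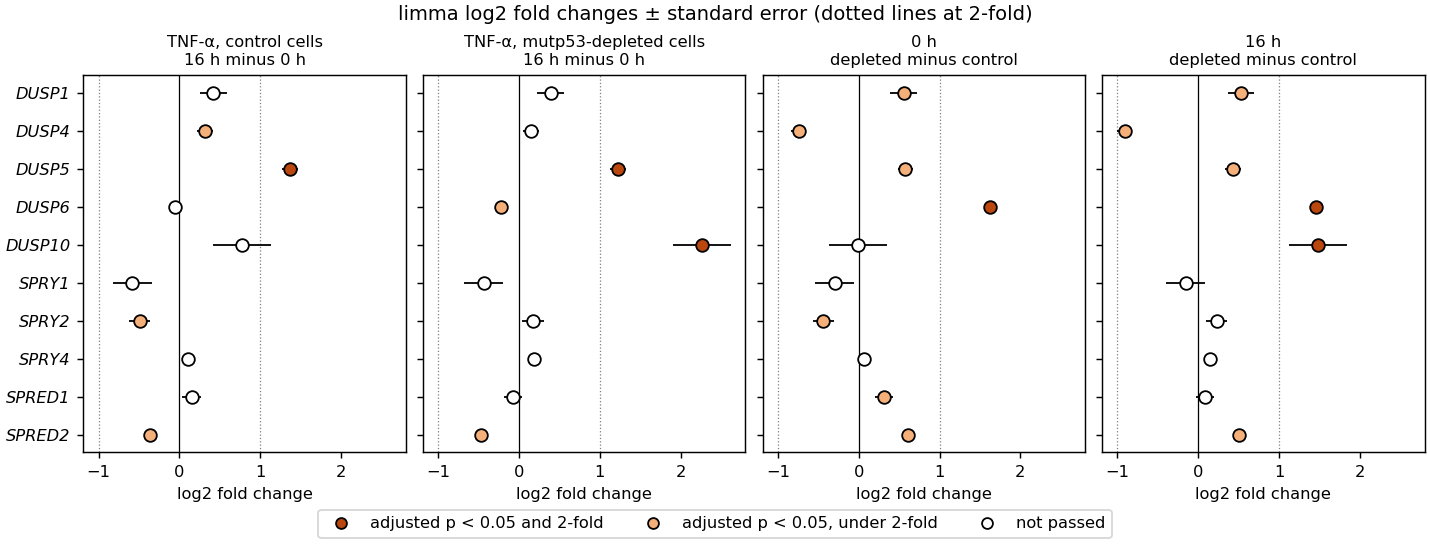
Limma log2 fold changes (horizontal axes) of the 10 genes in the 4 comparisons, with bars of 1 standard error from 2 libraries a group. Dark points passed an adjusted p of 0.05 with at least 2-fold, light points passed the adjusted p alone, open points did not pass, and dotted lines mark 2-fold. DUSP5 is dark in both TNF-α panels, DUSP10 in the TNF-α panel of the depleted line and at 16 h, and DUSP6 in both depletion panels.

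Counted over the set, 1 of the 10 genes (DUSP5) was called for TNF-α in the control line, beside 7.24% of the 14800 genes tested, and 4 passed the adjusted p alone, 2 higher and 2 lower, beside 26.3% (11.1% higher and 15.2% lower). In the depleted line 2 (DUSP5 and DUSP10) were called beside 6.36%, and 4 passed the adjusted p alone, 2 higher and 2 lower, beside 26.7% (9.8% and 16.9%). With depletion at 0 h 1 gene (DUSP6) was called beside 15.4%, and 7 passed the adjusted p alone, 5 higher and 2 lower, beside 52.5% (27.3% and 25.2%). At 16 h 2 genes (DUSP6 and DUSP10) were called beside 15.2%, and 6 passed the adjusted p alone, 5 higher and 1 lower, beside 51.3% (24.9% and 26.5%). Without replicate B of the depleted line at 0 h, 4 rather than 7 passed at 0 h, since DUSP1 (adjusted p = 0.053), SPRY2 (0.052) and SPRED1 (0.31) no longer did. Out of 10 genes, counts of this size are not a result about the set beside these shares of all genes. The 2 TNF-α comparisons share libraries with the 2 depletion comparisons.

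Over the 10 genes, log2 fold changes had a median of 0.13 for TNF-α in the control line, 0.16 in the depleted line, 0.19 for depletion at 0 h and 0.33 at 16 h, against -0.05, -0.06, 0.03 and -0.01 over all genes tested. In the test of the interaction, which asks whether the TNF-α response differed between the lines, 0 of the 10 genes passed limma's adjusted p beside 2.86% of all genes. At an unadjusted p under 0.05, 2 (DUSP10 and SPRY2) passed beside 13.5%, and edgeR on the recovered reads called 1 (SPRY2).

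Levels of different genes were compared per kilobase of exon. In the control line at 0 h DUSP6 was first with 760 ± 2.19 normalized reads per kb (SD, n = 2), followed by SPRY4 with 364 ± 4.64, SPRED2 with 247 ± 0.789, DUSP5 with 154 ± 18.8, SPRY2 with 92.9 ± 1.17, DUSP4 with 77.7 ± 5.02, SPRED1 with 48.2 ± 4.91, DUSP1 with 37.6 ± 3.28, SPRY1 with 27.6 ± 1.24 and DUSP10 with 4.29 ± 0.460. No neighbours in this order overlapped. DUSP6 was first in all 4 groups, at 729 ± 13.2 per kb in the control line at 16 h and at 2340.1 ± 42.0 and 2000.1 ± 38.7 in the depleted line. After TNF-α DUSP5 moved from rank 4 to rank 2 in both lines, at 399 ± 29.3 per kb in the control line, where its libraries overlapped those of SPRY4 (391 ± 18.2), and at 537 ± 30.7 in the depleted line, where they did not. SPRED1 and DUSP1 overlapped in the control line at 16 h and in the depleted line at 0 h, and SPRY2 and DUSP1 in the depleted line at 16 h. DUSP10 was last in 3 groups and passed SPRY1 in the depleted line at 16 h, at 21.8 ± 1.14 against 16.6 ± 3.95 per kb.

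The summed level of the set was 1815 ± 40.0 normalized reads per kb in the control line at 0 h, 2003 ± 21.2 at 16 h, 3586 ± 66.8 in the depleted line at 0 h and 3538 ± 12.7 at 16 h (SD, n = 2). DUSP6 made up 41.9% ± 0.804 of it in the control line at 0 h and 36.4% ± 1.05 at 16 h, and 65.2% ± 0.0445 and 56.5% ± 1.30 in the depleted line. DUSP5 took 8.50% ± 0.849 at 0 h and 19.9% ± 1.25 at 16 h in the control line, and 6.41% ± 0.376 and 15.2% ± 0.813 in the depleted line. At 0 h DUSP4 made up 4.28% ± 0.182 of the sum in the control line and 1.29% ± 0.0128 in the depleted line. These shares also move with the sum, of which DUSP6 was the largest part. At 0 h DUSP4 itself had 77.7 normalized reads per kb in the control line and 46.4 in the depleted line. DUSP5 had 154 and 230, a higher level at a lower share.

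**Figure D4:**
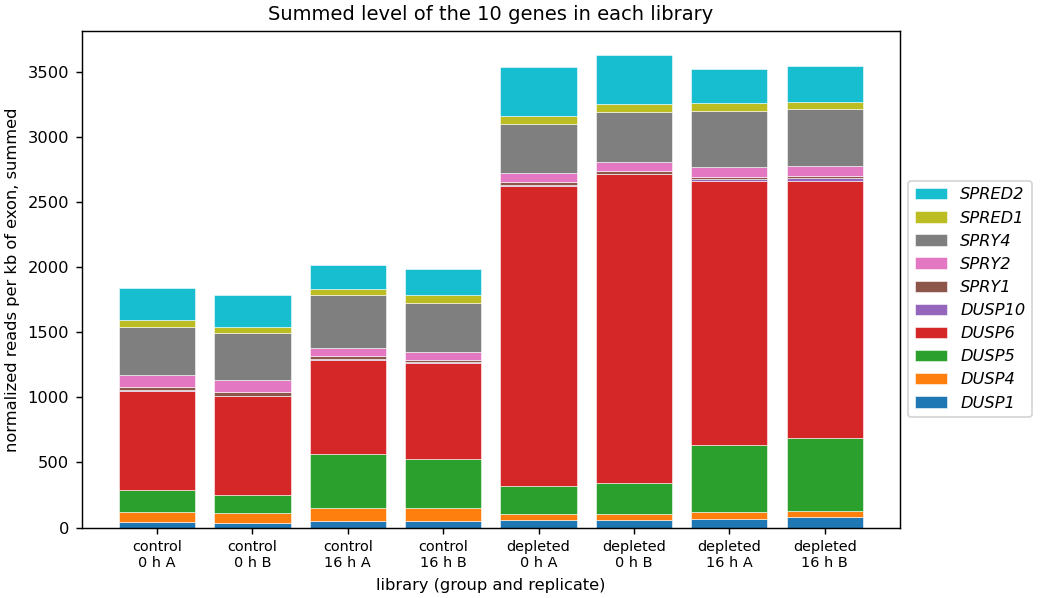
Stacked bars of normalized reads per kb of exon (vertical axis, linear, from 0) of the 10 genes in each of the 8 libraries (horizontal axis). DUSP6 is the largest segment in every library, and it makes up 41.9% of the sum in the control line at 0 h and 65.2% in the depleted line at 0 h.

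The genes most like each called member were sought by Pearson r over the 8 libraries among the 11023 genes averaging 50 normalized reads or more. DUSP6 was followed most closely by RASSF8 (r = 0.999), COQ5 (0.998) and WNK1 (0.998), all on chromosome 12 like DUSP6 itself. DUSP5 was followed by TSC22D1 (0.994), WWC1 (0.993) and NT5E (0.991), which lie on chromosomes 13, 5 and 6. DUSP10 was followed by SERPINB2 (0.987), KLF16 (0.986) and RRP9 (0.983). SERPINB2 had 301 ± 1.36 normalized reads in the depleted line at 16 h and a mean of at most 13.5 in the other groups. These correlations describe 8 points that form 4 groups, and no test was made of them.

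Of the 7 further MAPK phosphatase, Sprouty and SPRED genes, 6 were tested, and 5 of the 6 were called in some comparison or by the interaction, beside 25.9% of the 14800 genes. With TNF-α, 1 of the 6 was higher at the adjusted p in the control line and none lower, beside 26.3% of all genes in either direction, and 4 were higher and 1 lower in the depleted line, beside 26.7%. With depletion, 2 were higher and 2 lower at 0 h, beside 52.5%, and 3 higher and none lower at 16 h, beside 51.3%; the same shares of all genes stand behind the lists that follow. DUSP8, a JNK and p38 phosphatase, had 20.6 ± 3.97 normalized reads in the depleted line at 0 h and 74.3 ± 0.403 at 16 h (log2 fold change 1.81, SE 0.28, adjusted p = 7.4e-05). Its value in the control line was 1.72-fold (adjusted p = 0.051). DUSP2, a nuclear phosphatase of ERK and p38, had 274 and 265 normalized reads at 0 h and 244 and 233 at 16 h in the control line. It rose from 165 and 176 to 238 and 248 in the depleted line. Its interaction passed (log2 0.69, SE 0.16, adjusted p = 0.024), but not with DESeq2 (adjusted p = 0.092) or with most of the libraries left out. DUSP9, another ERK phosphatase, was lower with depletion at 0 h, at 11.9 ± 0.672 against 33.1 ± 4.67 (log2 fold change -1.40, SE 0.34, adjusted p = 0.0021). At 16 h its libraries overlapped between the lines (0.857 times control, adjusted p = 0.66). Its rise with TNF-α in the depleted line (2.18-fold, adjusted p = 0.030) lost the adjusted p with no filter (0.071) and with DESeq2 (0.101). The rise also lost it without replicate A or B at 0 h or replicate B at 16 h of that line (log2 0.99, 1.09 and 0.77). SPRED3 was higher with depletion (3.16-fold at 0 h, adjusted p = 0.024) from a mean of 5.23 normalized reads, too few for a firm value.

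Of 17 genes of the ERK cascade itself, 5 passed the adjusted p for TNF-α in the control line (3 higher, 2 lower), 6 in the depleted line (3 higher, 3 lower), 9 for depletion at 0 h (6 higher, 3 lower) and 10 at 16 h (6 higher, 4 lower). MAP2K1, which encodes the ERK kinase MEK1, rose from 483 ± 13.1 to 939 ± 17.7 normalized reads with TNF-α in the control line (1.94-fold, log2 fold change 0.96, SE 0.08, adjusted p = 3.8e-08) and 1.43-fold in the depleted line. KSR1, a scaffold of RAF and MEK, went from 10.5 ± 1.27 to 32.9 ± 8.08 normalized reads with TNF-α in the depleted line (log2 fold change 1.54, SE 0.40, adjusted p = 0.0080), and the call was lost without replicate B at 0 h (adjusted p = 0.064) or replicate A at 16 h (0.088) of that line. In the control line the TNF-α value of KSR1 was 0.725-fold (adjusted p = 0.49). Between the lines at 16 h KSR1 was 3.93-fold higher with depletion (log2 fold change 1.85, SE 0.40, adjusted p = 0.00083), from a control mean of 8.37 normalized reads. NRAS rose 1.45-fold with TNF-α in the control line (0.54, SE 0.08, adjusted p = 7.0e-05) and was at 1.06 times in the depleted line (adjusted p = 0.46).

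Among 6 other negative regulators of RAS and ERK, 0 passed limma's adjusted p for TNF-α in the control line (3 at an unadjusted p under 0.05) and 1, lower, in the depleted line, while 5 passed for depletion at each time, 4 higher and 1 lower. ERRFI1, an inhibitor of the EGF receptor, was the called gene, at 277 ± 22.0 normalized reads in the control line and 569 ± 47.6 in the depleted line at 16 h (log2 fold change 1.03, SE 0.10, adjusted p = 7.8e-08), and it was under 2-fold without replicate B of either line at 16 h (0.95 in each case). In the JNK and p38 cascade 13 of 15 genes were tested, of which 3 passed for TNF-α in the control line (2 higher, 1 lower), 6 in the depleted line (2 higher, 4 lower), 10 for depletion at 0 h (4 higher, 6 lower) and 6 at 16 h (2 higher, 4 lower). MAPK11, which encodes p38β, rose with TNF-α from 70.3 ± 7.31 to 142 ± 25.3 normalized reads in the control line (2.01-fold as a ratio of means, log2 fold change 0.99, SE 0.21, adjusted p = 0.0014) and 2.10-fold in the depleted line (1.04, adjusted p = 0.00095).

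All 11 ERK-responsive transcripts examined beside the members passed the adjusted p for TNF-α in each line, 5 higher and 6 lower, and 9 passed for depletion at 0 h (5 higher, 4 lower) and 9 at 16 h (6 higher, 3 lower). FOSL1, an AP-1 subunit, rose with TNF-α from 745 and 798 to 1998 and 1747 normalized reads in the control line (log2 fold change 1.28, SE 0.08, adjusted p = 7.9e-10) and from 1235 ± 4.57 to 3713 ± 278 in the depleted line. FOS, another subunit, fell from 545 ± 10.2 to 156 ± 19.0 in the control line (-1.81, SE 0.10, adjusted p = 2.3e-10) and to 0.335 times its 0 h level in the depleted line. EGR1, an immediate-early transcription factor, was at 1974 ± 40.4 in the control line and 1017 ± 94.8 in the depleted line at 0 h (-0.96, SE 0.08, adjusted p = 1.5e-08), the opposite direction to DUSP6 at that time. At 16 h the EGR1 value was 0.919 times control (-0.12, adjusted p = 0.22), which did not pass. PHLDA1 was lower with depletion at 0 h as well, at 1564 ± 74.6 against 3197 ± 95.7 (-1.03, SE 0.07, adjusted p = 6.1e-10). Higher at 0 h, as DUSP6 was, were FOSL1 (1.60 times control, adjusted p = 1.1e-06) and FOS (1.37 times, adjusted p = 0.0011). At that time ETV4 was at 3257 ± 9.38 with depletion against 2144 ± 20.9, and ETV5 at 2336 ± 54.3 against 1585 ± 18.6. Transcripts of this list thus passed in both directions in each of the 4 comparisons.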

How the data were processed

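Human SW480 cells were profiled by strand-specific dUTP mRNA-seq with 50-base single-end reads. The 13 ChIP-seq, GRO-seq and input samples were not analysed here. The authors mapped reads with STAR and counted them on exons of RefSeq genes with HOMER. Each deposited signal value is a whole number of reads times 1 factor per library (1 read equals 0.67 to 1.515), and reads were recovered for 100% of values within rounding. The table's header and coordinates give hg19, whereas the labels name hg38. The log2 fold change, p-value and adjusted p-value columns the authors deposited for 4 comparisons were not used. The 10 genes and the other gene lists were chosen with earlier results of these data known.

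Values were compared as log2(value + 1) with limma (version 3.58.1, R version 4.3.3; lmFit, then contrasts.fit and a trended eBayes) over the 14800 genes averaging 2.5 or more, with 4 group means, no covariate, and Benjamini-Hochberg adjustment over all of them. Genes were called at an adjusted p under 0.05 and a change of at least 2-fold, while the interaction needed only the adjusted p. Ratios of means were taken on the linear scale. Named genes were the 10 members, the genes of each list called in any comparison, and the 3 genes most like each called member; some genes that the rule or the lists gave are not reported here. SERPINB2, VIL1, COL1A1, PTPRC, DCN, ETV4, ETV5, DUSP5P1 and SPRY4-IT1 were singled out after their values were seen where no rule gave them, as was the split of neighbours into protocadherin and other genes.

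The 17 alternatives were median-ratio rescaling, a filter at 10 or none, pseudocounts of 0.1 and 5, a replicate block, quasi-likelihood tests in edgeR 4.0.16 (TMM) and Wald tests in DESeq2 1.42.0, both on recovered reads, each of the 8 libraries left out, and the median of the 50 nearest tested genes removed from each library. Replicates of a group differed beyond sampling noise (chi-square per gene 2.07 to 3.93). Promoters came from RefSeq (GRCh38.p14). Python 3.11.15 (pandas 2.3.3, numpy 2.4.6, matplotlib 3.10.9) was used for tables and figures.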

Additional observations from a re-analysis of the deposited data

Results flagged for a closer look

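No member passed limma's test of a TNF-α response that differed between the lines, beside 2.86% of all genes (interaction, adjusted p under 0.05). Of the other genes named, 6 did. Passing this test was 1 way for a gene of the lists to be named, so that their number is not a result. Values are mutp53-depleted minus control, log2. EGR1 differed by 0.84 (SE 0.11, adjusted p = 0.00025), because it fell less in mutp53-depleted cells, and PHLDA1 by 0.53 (adjusted p = 0.0035), because it rose more. DUSP2 differed by 0.69 (adjusted p = 0.024), with a rise in mutp53-depleted cells that control cells did not show. MAP3K1 differed by -0.56 (adjusted p = 0.0052), MAP2K1 by -0.44 (adjusted p = 0.040) and NRAS by -0.45 (adjusted p = 0.046). EGR1, PHLDA1 and MAP3K1 passed under all 17 alternatives. MAP2K1 and NRAS lost the call under most of the 17, MAP2K1 among them with each library left out. DUSP2 lost it with DESeq2 and with most of the libraries left out. With DESeq2 the adjusted p was 0.092 for DUSP2, 0.197 for MAP2K1 and 0.145 for NRAS. Without replicate B of mutp53-depleted cells at 0 h all of them lost it, with differences of 0.73, -0.40 and -0.36. Apart from MAP2K1, these genes already differed between the lines at 0 h at the adjusted p. As a ratio to control, EGR1 was at 0.515 at 0 h and 0.919 at 16 h, PHLDA1 at 0.489 and 0.706, and DUSP2 at 0.632 and 1.02. MAP3K1 was at 1.41 and 0.954, NRAS at 1.55 and 1.14, and MAP2K1 at 1.09 and 0.804. Groups of 2 libraries were too small for a search for single outlying libraries.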

How the results depend on the processing

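The called members were the same under median-ratio rescaling, both other filters, both pseudocounts, the replicate block, DESeq2 and each library left out, and no value that was called changed sign. Of 850 member values under the 17 alternatives, 828 kept their direction and their side of the call, 18 that were not called changed sign, 3 became called and 1 lost the call (DUSP6 at 16 h, 0.87 with neighbouring genes removed). Most of these values were not called with the main settings, so that keeping their side of the call says little. Values that were not called and lost the adjusted p alone count among the 828. The interaction called 0 members, and 1 with edgeR quasi-likelihood and 1 with neighbouring genes removed, SPRY2 in each case; the cause was not tested. With libraries left out in turn, members passing the adjusted p alone for depletion at 0 h numbered 4 to 7, and all genes called by the interaction 208 to 421, against 424 with all libraries, the lowest without replicate B of mutp53-depleted cells at 0 h. On the recovered reads edgeR called 1076, 939, 2336, 2249 and 456 genes for TNF-α in the control and the depleted line, depletion at 0 h, depletion at 16 h and the interaction, and DESeq2 called 803, 690, 1949, 1916 and 291. The letters A and B were not treated as pairs: deviations of same-lettered libraries had r between -0.02 and 0.07 over the 6 pairs of groups, and between -0.08 and 0.22 over genes averaging 50 or more, with 3 of 6 above 0.1. With the replicate block the interaction called 559 genes, and no member changed its call. With 2 libraries a group and at most 67 reads, values of DUSP10 are limited by depth.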
